A study of Mus musculus with 15 samples.

Results

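C3 and C4a are complement components, and both were among the 754 genes counted in mouse bone marrow-derived macrophages (BMDMs) with the NanoString nCounter platform, where color-coded probes for a panel of myeloid genes are counted one by one on their target RNAs, with no amplification. The 2 genes were chosen by their counts across the 4 treatment groups, so the levels and differences given for them below are descriptions and carry no test. All BMDMs were grown from femoral marrow with M-CSF. MPLA cells (4 samples) were kept for 4 days in 20 ng/mL of monophosphoryl lipid A, a Toll-like receptor 4 agonist, as M1-like standards. IL4 cells (4 samples) were kept for 4 days in 20 ng/mL of IL4 as M2-like standards. IRF5-NP cells (3 samples, numbered 1, 2 and 4) were IL4-conditioned cells exposed for 1 h to 1 µg of mannose-decorated nanoparticles carrying IRF5 mRNA. eGFP-NP cells (4 samples) were IL4-conditioned cells given nanoparticles with eGFP mRNA in the same way. By the study's methods the IRF5 particles also held mRNA for the kinase IKKβ and an eGFP reporter. The methods also state that the cells with the strongest transfection were collected by sorting and put back into a lower dose of IL4 until RNA isolation. The labels give 20 ng/mL of IL4 for 4 days for the nanoparticle groups too, so their IL4 exposure may not have equaled that of the IL4 group. The methods state another nanoparticle amount than the labels, and which applied here is not settled. The labels do not say whether replicates were separate cultures. The study calls its macrophage expression samples biologically independent, but in a number that is not that of any group here, and several libraries were nearly identical, so p-values cover the spread between these samples, which may be technical.

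Complement is a cascade of plasma and tissue proteins that tags targets for uptake. C3 is the protein on which the classical, lectin and alternative routes converge: its cleavage yields C3b, which coats surfaces and is recognized by phagocyte receptors, and C3a, a small peptide that signals through the receptor C3ar1. C4 is cleaved earlier, in the classical and lectin routes, and its fragment C4b joins C2a to form a convertase that cuts C3. The liver makes most circulating C3, and macrophages and fibroblasts also transcribe it, in macrophages under Toll-like receptor signaling. In the RefSeq annotation of the assembly GRCm38.p6, C3 (gene ID 12266) is protein coding. C4a (gene ID 625018) is annotated as a transcribed pseudogene, with Slp and C4b among its synonyms, and its close relative C4b (gene ID 12268) is the protein-coding C4 gene. C4b had no row of its own among the counted genes, and the probe sequence was not among the sources used here, so C4a counts may include C4b transcripts.

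The promoter of C3 is shown because C3 levels tracked those of Fcgr1, Tlr2, Aoah and Cxcl16 across libraries, as given below. The RefSeq sequence of the 250 bases before the C3 start (GRCm38.p6, chr17:57228137-57228386, minus strand) is written 5′ to 3′ with capitals for the letters that matched a searched motif on either strand:

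C3 promoter: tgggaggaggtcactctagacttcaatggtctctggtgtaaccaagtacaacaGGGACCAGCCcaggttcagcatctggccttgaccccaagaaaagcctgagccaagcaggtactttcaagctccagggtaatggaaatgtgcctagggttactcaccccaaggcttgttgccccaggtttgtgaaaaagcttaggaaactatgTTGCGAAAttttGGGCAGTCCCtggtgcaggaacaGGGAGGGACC

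Letters of the form GGGANNNNCC, a degenerate NF-kB pattern, matched 3 times, at -197 to -188 and at -10 to -1 on the sense strand and at -33 to -24 on the antisense strand, counted from the start. At least 1 such match was present in 17.6% of 32851 RefSeq promoters of that length. The C/EBP pattern TTGCNNAA matched once, at -45 to -38, and was present in 9.56% of promoters. The patterns GAAANNGAAA (interferon regulatory factors, present in 2.98% of promoters), TTCNNNNGAA (STAT6, 5.85%) and TATAAA (12.4%) had no match in this window. None of these matched letters overlapped another match, and a match is a description of the sequence and not a binding site.

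Total gene counts were between 266169 in IRF5-NP 4 and 1784833 in MPLA 1. Background, set as the mean plus 2 SD of the negative-control counts, lay between 19.7 and 34.9 counts per library. Counts of eGFP-NP 1 and 2 were not distinguishable from sampling noise, with a chi-square over its degrees of freedom of 1.09 (p = 0.0817). Their sum was used as 1 sample, called eGFP-NP 1-2, so that eGFP-NP entered with 3 libraries and the series with 14. Another 4 pairs were nearly identical (1.37 to 2.56 per degree of freedom) but kept separate: MPLA 1 and 4, MPLA 2 and 3, IRF5-NP 1 and 2, and eGFP-NP 3 and 4. Pairs other than these 5 within a group gave 41.4 to 1250. All but 1 of the 10 macrophage markers counted were above background in IRF5-NP 4, and all 10 were above it in the other libraries. Fibroblast markers split the libraries within the IL4 and nanoparticle groups, and not within MPLA, as given beside C3 below. The endogenous Irf5 probe gave between 8.80 and 11.00 log2 CPM with IRF5 particles, between 10.18 and 11.16 with eGFP particles and between 10.08 and 10.84 after IL4 alone, so it gave no check of the IRF5-NP label, and whether it binds the delivered mRNA is not stated.

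C3 was abundant after MPLA, split in 2 within the IL4 group, and lower than in MPLA in every nanoparticle library. Levels are given as raw counts or as log2 CPM, where CPM is a gene's count relative to the size of its library after TMM scaling (by a trimmed mean of gene ratios between libraries), with a prior count of 2. Raw C3 counts in MPLA 1 to 4 were 6267, 4822, 5082 and 6155. In IL4 1 to 4 the C3 counts were 350, 5101, 3879 and 773. IL4 2 and 3 thus sat with the MPLA libraries, and IL4 1 and 4 far below them. IRF5-NP 1, 2 and 4 had C3 counts of 782, 753 and 375. In eGFP-NP 1 to 4 the C3 counts were 168, 155, 548 and 511. Every library was above its background for C3, the nearest being eGFP-NP 2. In these bulk samples, fewer cells of a type and less RNA per cell cannot be told apart.

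**Figure D1:**
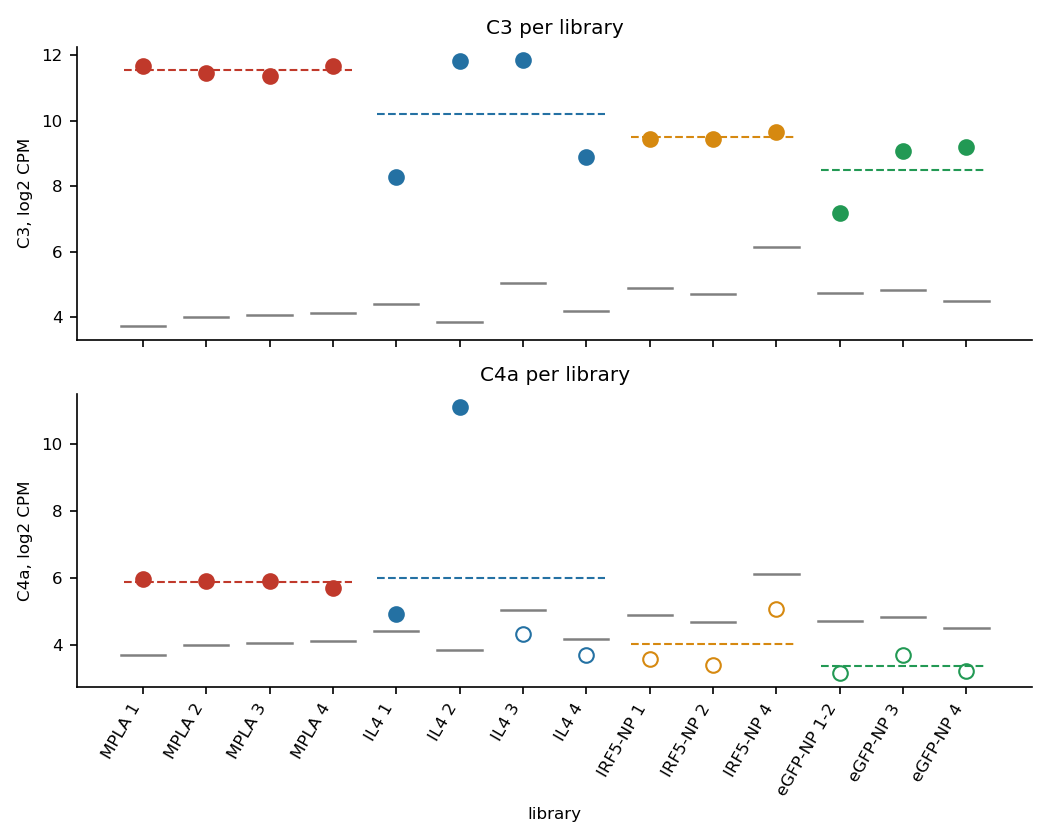
Level of C3 (top) and C4a (bottom) in each of the 14 libraries, in log2 CPM. Colors mark the 4 groups, dashed lines are group means, gray bars are the background of each library, and open points are below it. C3 is above background throughout, whereas C4a is above it in the 4 MPLA libraries and in IL4 1 and 2, with IL4 2 at 11.11.

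On the log2 CPM scale, mean C3 was 11.54 ± 0.15 (SD, n = 4) in MPLA, 10.21 ± 1.90 (SD, n = 4) in IL4, 9.52 ± 0.14 (SD, n = 3) in IRF5-NP and 8.49 ± 1.13 (SD, n = 3) in eGFP-NP. The groups therefore ranked MPLA, IL4, IRF5-NP and eGFP-NP, but neighbors in this order were not all separated. MPLA (11.38 to 11.68) lay inside the IL4 range (8.28 to 11.85), and so did all IRF5-NP libraries (9.43 to 9.67). eGFP-NP (7.18 to 9.21) overlapped the lower IL4 libraries and not the IRF5-NP libraries. The small SD of IRF5-NP rests partly on the nearly identical pair 1 and 2, and that of MPLA on its 2 nearly identical pairs.

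Differences between groups were taken from edgeR's quasi-likelihood fit, which averages on the count scale, so they need not equal the difference of mean log2 CPM. C3 was 0.61 ± 0.74 (SE) log2 units higher in MPLA than in IL4, a difference smaller than its error. It was 0.25 without IL4 1, 0.23 without IL4 4, 1.07 without IL4 2 and 1.05 without IL4 3. Relative to IL4, the C3 difference was -1.57 ± 0.93 (SE) for IRF5-NP and -2.39 ± 1.05 (SE) for eGFP-NP cells, and these comparisons share the IL4 libraries. Without IL4 2 the IRF5-NP difference was -1.03, and without IL4 3 the eGFP-NP difference was -1.81. Set against MPLA, where no library overlapped, C3 differed by -1.92 ± 0.23 (SE, 3.77-fold lower) in IRF5-NP and by -2.87 ± 0.51 (SE, 7.30-fold lower) in eGFP-NP. These folds hold for TMM: with positive-control scaling the group means were 11.93 ± 0.26 in MPLA, 9.10 ± 1.13 in IRF5-NP and 7.76 ± 0.83 in eGFP-NP (SD), which lie farther apart.

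In the libraries labelled IRF5-NP, C3 was 0.85 ± 0.57 (SE) log2 units above those labelled eGFP-NP, which asks whether the IRF5 cargo added to what the particles alone did. All 3 IRF5-NP libraries were above all 3 eGFP-NP libraries under TMM scaling. A fit that blocked on the replicate number gave 1.62, but whether the numbers pair these groups is not known. That fit held only numbers 1, 2 and 4, which both groups have. It thus left out eGFP-NP 3, and eGFP-NP 1 and 2 entered it as separate libraries. Without the summed library eGFP-NP 1-2, the difference of the main fit became 0.43. For number 4 alone the gap was from 9.67 to 9.21 log2 CPM, and for numbers 1 and 2 from 9.43 and 9.44 in the IRF5-NP libraries to 7.18 in eGFP-NP 1-2.

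The scaling decided whether those groups overlapped. Scaled by the geometric mean of 20 housekeeping genes, C3 was 9.42, 9.49 and 10.05 in IRF5-NP 1, 2 and 4 and 7.05, 8.89 and 8.95 in the eGFP-NP libraries. Scaled by the spiked-in positive controls, which follow the assay and not the RNA loaded, C3 was 9.67, 9.83 and 7.80 in IRF5-NP and 6.81, 8.13 and 8.33 in eGFP-NP. With the positive controls the groups overlapped, and for number 4 the order was turned. IRF5-NP 4 had the lowest total gene count of all libraries. The fitted difference was 1.16 with housekeeping scaling and 1.45 with positive-control scaling.

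**Figure D2:**
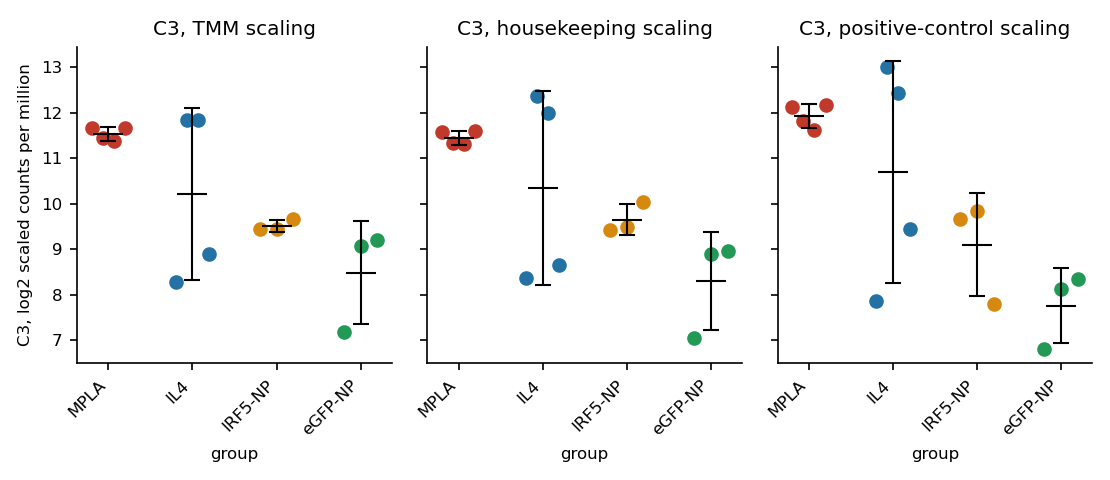
C3 in each library (points) by group under TMM, housekeeping and positive-control scaling, in log2 scaled CPM, with the group mean (long bar) and SD (error bars). MPLA stays within a narrow band and IL4 stays split in all 3 panels, whereas IRF5-NP 4 falls to 7.80, below 2 eGFP-NP libraries, with positive-control scaling.

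The spread of C3 was set beside that of fibroblast genes, because fibroblasts can transcribe C3 and grow in marrow cultures. Of 20 fibroblast markers, 8 were counted (Col1a2, Col3a1, Col12a1, Col14a1, Pdgfra, Pdgfrb, Cdh11 and Timp3). Their mean lay between 11.13 and 11.28 log2 CPM in the MPLA libraries. For IL4 1 to 4 it was 9.79, 10.56, 4.11 and 8.87. IL4 3 had 0 of the 8 fibroblast markers above background. In the nanoparticle groups the mean was 3.90, 3.96 and 10.06 in IRF5-NP 1, 2 and 4 and 3.87, 10.42 and 10.47 in eGFP-NP 1-2, 3 and 4. IRF5-NP 1 and 2 and eGFP-NP 1-2 each had 1 marker, Col3a1, just above background.

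C3 was high both with and without these genes. IL4 2, rich in fibroblast markers, and IL4 3, with none above background, read 11.84 and 11.85 log2 CPM of C3. IL4 1 and 4, with all 8 markers above background, read 8.28 and 8.89. Among the libraries poor in fibroblast markers, C3 was 11.85 in IL4 3, 9.43 and 9.44 in IRF5-NP 1 and 2 and 7.18 in eGFP-NP 1-2. Among the rich nanoparticle libraries, C3 was 9.67 in IRF5-NP 4 against 9.07 and 9.21 in eGFP-NP 3 and 4, so IRF5-NP was the higher in both sets under TMM. Pearson's r of C3 with the fibroblast mean over the 14 libraries was 0.38 (Spearman's rho 0.50), with the macrophage mean 0.39 (0.51) and with the mean of 9 granulocyte genes 0.50 (0.50). These libraries share groups and nearly identical pairs, and a cause of the split was not tested.

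The macrophage list (10 of 13 markers counted) averaged between 11.20 and 11.31 log2 CPM in MPLA libraries and 10.60, 11.58, 11.65 and 10.82 in IL4 1 to 4. The IL4 libraries with high C3 thus also had the higher macrophage means. In IRF5-NP 1, 2 and 4 the macrophage mean was 11.57, 11.53 and 10.09, and in eGFP-NP it was 11.50, 10.00 and 9.99. Here the order was not that of C3, since eGFP-NP 1-2 had a high macrophage mean and the lowest C3. Granulocyte genes were partly above background and moved with C3 in part. Of 9 counted, 4 were above background in every MPLA library, with a summed level of 618 to 1081 CPM, and Camp, an antimicrobial peptide gene, read 7.44 to 8.82 log2 CPM there and 3.95 to 4.66 in IL4. Csf3r, the receptor gene for G-CSF on the same list, went the other way, at 5.12 to 5.66 in MPLA and 6.22, 6.58, 7.43 and 4.97 in IL4 1 to 4. The summed level was 196, 220, 697 and 210 CPM in IL4 1 to 4, so it was highest in IL4 3, which had high C3, and low in IL4 2, which also had high C3. It was 311 to 368 CPM in IRF5-NP and 239 to 577 CPM in eGFP-NP, and its part in the C3 level was not tested. Other list means were low: they lay between 3.07 and 5.30 log2 CPM for 2 endothelial genes, 2.67 and 5.25 for 4 dendritic cell genes and 3.44 and 5.09 for the lymphocyte gene Ms4a1. The upper endothelial and Ms4a1 values were those of IRF5-NP 4, where none of these genes was above background. IL4 2 stood apart here too, with 3 of 4 dendritic cell genes, both endothelial genes and Ms4a1 above background. Its summed dendritic cell level was 258 CPM, against 21.5 to 93.5 in the other libraries.

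**Figure D3:**
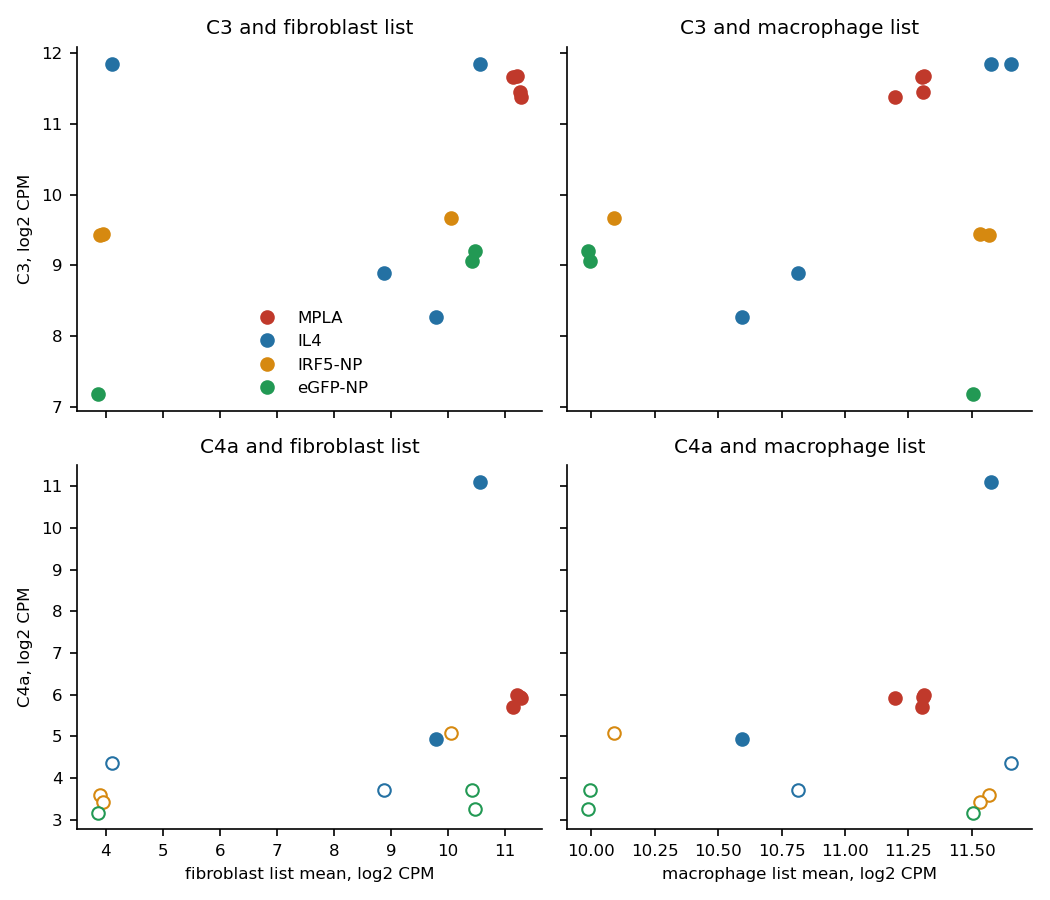
C3 (top) and C4a (bottom) in each library against the mean log2 CPM of 8 fibroblast genes (left) and 10 macrophage genes (right). Colors mark the groups and open points are below background. C3 is near 11.8 at both ends of the fibroblast axis in IL4 2 and 3, and C4a is high in IL4 2, which is high on both axes.

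C4a was low in the panel except in 1 library. Raw C4a counts in MPLA 1 to 4 were 118, 103, 113 and 96, all above background. In IL4 1 to 4 they were 33, 3059, 20 and 19. Only IL4 1 and 2 were above background in that group, IL4 1 narrowly. In IRF5-NP 1, 2 and 4 the C4a counts were 12, 10 and 15. In eGFP-NP 1 to 4 they were 9, 8, 12 and 7. All 7 nanoparticle samples were below background, so no difference between IRF5-NP and eGFP-NP is given for C4a.

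Mean C4a was 5.89 ± 0.12 log2 CPM (SD, n = 4) in MPLA and 6.03 ± 3.42 (SD, n = 4) in IL4. The IL4 mean describes none of its libraries, since IL4 2 read 11.11 and the others 3.71 to 4.93. The fitted difference of MPLA from IL4 was -3.25 ± 1.61 (SE) with IL4 2 and 1.57, in the opposite direction, without it, when IL4 1 was the only IL4 library above background. Fitted C4a differences of the nanoparticle groups from IL4 are no measured differences, since all nanoparticle libraries and IL4 3 and 4 were below background; they stand only with the alternatives, to show that they rest on IL4 2. MPLA was at least 1.52-fold higher in C4a than IRF5-NP and at least 2.22-fold higher than eGFP-NP, taking the mean background of each nanoparticle group as the bound. The low bound for IRF5-NP reflects IRF5-NP 4, whose background of 32.4 counts stood at 6.14 log2 CPM, above the highest MPLA level of 5.98. That library alone gives no bound, so the 1.52 rests on IRF5-NP 1 and 2, a nearly identical pair. Both bounds were taken with TMM scaling.

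C3 and C4a were both above background in every MPLA library, and both were high in IL4 2. They parted in IL4 3, where C3 had 3879 counts and C4a 20. C4a was above background in 6 of the 14 libraries, so no correlation of C3 with C4a is given.

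The genes with the pattern most like that of C3 were found by Pearson's r of log2 CPM over the 14 libraries, among 548 other genes above background in at least 7 of them. Acod1, the gene of the enzyme that makes itaconate, was among the 5 found but was above background in 9 of the 14 libraries, so no correlation is given for it. Above background in all 14 were Fcgr1 (r = 0.87, rho = 0.85), the high-affinity IgG receptor, and Tlr2 (0.85, 0.76), a receptor for bacterial lipoproteins. So were Aoah (0.84, 0.77), which deacylates lipopolysaccharide, and the chemokine gene Cxcl16 (0.82, 0.88). Leaving out IL4 2 kept the r of these 4 genes between 0.80 and 0.92. Tlr2, for example, read 8.09 to 8.30 log2 CPM in MPLA, 5.83, 8.07, 6.81 and 5.85 in IL4 1 to 4, between 5.94 and 7.13 with IRF5 particles and between 5.68 and 5.99 with eGFP particles.

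The same search for C4a named the costimulatory gene Cd86, Fcgr1, the interferon-induced chemokine gene Cxcl9 and the exonuclease gene Trex1. Since most C4a values were below background and have no order, no correlation is given for them. Like C4a, each of these genes had its highest level in IL4 2. Cd86 read 9.69 log2 CPM there and 4.94 to 7.37 in the other libraries. Fcgr1 read 11.93 against 6.32 to 9.57. For both, the MPLA libraries were the next highest, at 7.06 to 7.37 for Cd86 and 9.08 to 9.57 for Fcgr1, and C4a was above background there too. By contrast, Cxcl9 read 14.08 against 3.88 to 6.15, and it was above background in only 8 of the 14 libraries. The 6.15 was in IRF5-NP 4, about the background of that library (6.14), so no order is given for the libraries other than IL4 2. Trex1 read 8.39 against 6.54 to 7.71, a narrower gap. Fcgr1 was the only gene named for both members, and it also belongs to the macrophage list.

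**Figure D4:**
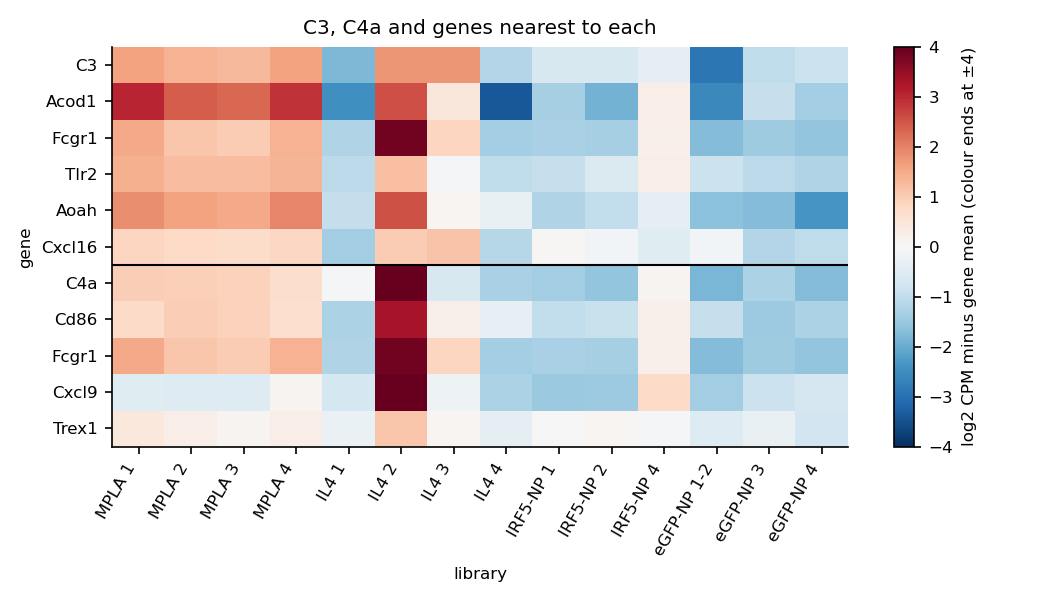
C3, C4a and the genes named above for each, in the 14 libraries, as log2 CPM minus the mean of the gene (color scale, ending at 4 units either way). The upper block is near C3 and is warm in MPLA and in IL4 2, and the lower block is near C4a, where IL4 2 stands out. In IL4 3, C3 (11.85) and Cxcl16 (11.14) are above MPLA, whereas Acod1, Fcgr1, Tlr2 and Aoah are below their MPLA levels.

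The other complement genes put these levels in the context of the pathway. Of 46 listed complement genes besides C3 and C4a, 10 were counted: C1qa, C1qb, C1qc and Fcnb, which recognize targets; Hc, the C5 gene of the terminal pathway; and the receptor genes C3ar1, C5ar1, Itgam, Itgax and Itgb2. No gene of the alternative pathway proper and no soluble or membrane regulator on the list had a count here. They were tested by edgeR's quasi-likelihood test with Benjamini-Hochberg adjustment over all 754 genes.

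Between MPLA and IL4, 7 of the 10 passed, 1 higher and 6 lower in MPLA, whereas 26.4% of all genes passed (12.2% higher and 14.2% lower). The 10 include Fcnb and Hc, which were below background in every library, and Hc is 1 of the 6 lower. Of the other 8 genes, 6 passed, 1 higher and 5 lower, and their median difference was -1.89 log2 units, against -0.05 for all genes. The C1q subunit genes fell in MPLA, C1qa by 3.43 ± 0.66 (SE, edgeR adjusted p = 0.00889), C1qb by 3.72 ± 0.68 (adjusted p = 0.00746) and C1qc by 2.49 ± 0.54 (adjusted p = 0.0138). Without IL4 2, which had the highest C1q counts, these differences were -2.37, -2.63 and -1.70 and still passed (adjusted p from 0.00014 to 0.00107). C1qc lost its call without MPLA 1 (adjusted p = 0.0554) and without MPLA 4 (adjusted p = 0.0521). The same MPLA libraries had C3 counts of 4822 to 6267. C5ar1, the receptor of the C5 fragment C5a, rose by 1.52 ± 0.30 (SE, edgeR adjusted p = 0.00934), and it lost the call under housekeeping scaling (1.18, adjusted p = 0.0636) and positive-control scaling (1.19, adjusted p = 0.177).

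Among the receptors of C3 fragments, Itgax and Itgb2, which together form complement receptor 4, fell in MPLA by 3.66 ± 1.06 (SE, edgeR adjusted p = 0.0364) and 1.29 ± 0.32 (adjusted p = 0.0235). Leaving out any 1 MPLA library ended both calls, and so did the fibroblast list mean as a covariate (Itgax -1.91, adjusted p = 0.293; Itgb2 -0.71, adjusted p = 0.129). In all, Itgax lost its call in 12 of 17 alternatives and Itgb2 in 9 of 17. Itgax had 26 counts in IL4 2 and 795 to 2293 in the other IL4 libraries. Itgam, which with Itgb2 forms complement receptor 3, differed by 0.20 ± 0.43 (adjusted p = 0.761), and its sign turned with either other scaling. C3ar1, the receptor of C3a, differed by -0.65 ± 0.28 (adjusted p = 0.125), and DESeq2 called it lower in MPLA (-0.74, adjusted p = 0.0244). Hc also passed the test, but with 10 to 17 counts in MPLA and 17 to 32 in IL4 it was below background in every library, as was Fcnb, and no difference is given for either.

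**Figure D5:**
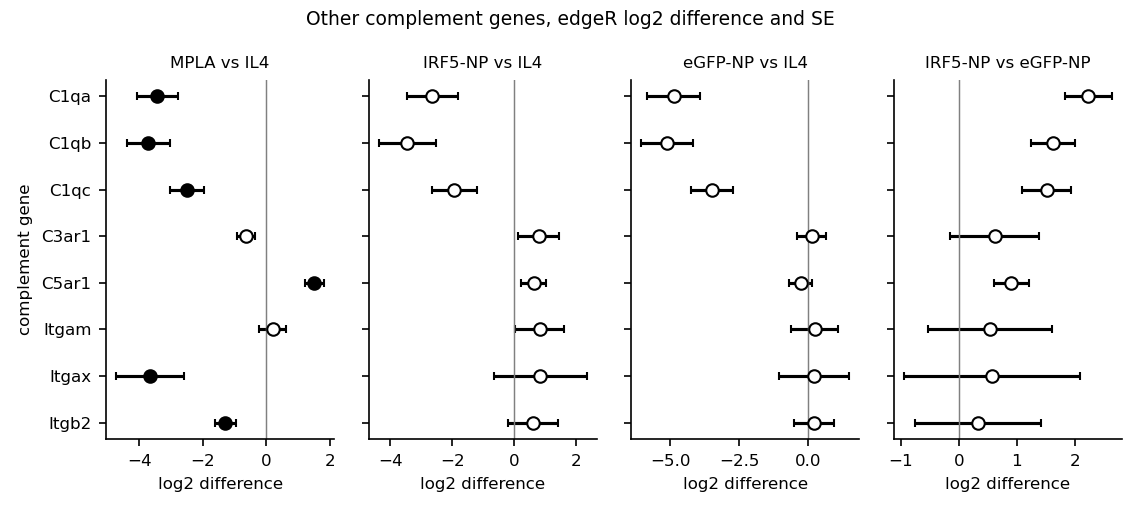
edgeR log2 difference (points) and SE (bars) of the 8 other complement genes that were not below background in every library, in 4 comparisons with separate horizontal scales. Itgax was below background in IRF5-NP 4. Filled points passed an adjusted p of 0.05 and open points did not. Only MPLA vs IL4 has filled points, and the C1q genes lie below IL4 in both nanoparticle groups without passing.

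The MPLA calls depended on the libraries counted. With all nearly identical pairs summed, 0 of the 10 passed, and C1qa, C1qb and C1qc differed by -3.46, -3.75 and -2.52 with adjusted p of 0.167, 0.149 and 0.186. Leaving out MPLA 1 or MPLA 4 gave 3 called genes each. Scaling also moved the balance of calls over all genes: 92 of 199 called genes were higher in MPLA with TMM, 45 of 167 with housekeeping scaling and 28 of 86 with positive-control scaling, and the median of all genes was then -0.33 and -0.24.

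No other complement gene passed in a nanoparticle comparison, and no gene of the panel did (0% of 754 in IRF5-NP vs IL4, 0% in eGFP-NP vs IL4 and 0% in IRF5-NP vs eGFP-NP, edgeR). At an unadjusted p under 0.05 the counts were 53, 84 and 42 genes, of which 3, 3 and 4 were complement genes. The C1q genes made up all 3 in both comparisons with IL4, at differences of -1.94 to -3.46 for IRF5-NP and -3.47 to -5.10 for eGFP-NP cells. Without IL4 2 they were -1.02 to -2.25 and -2.53 to -3.88, and C1qb then passed in eGFP-NP vs IL4 (edgeR adjusted p = 0.0402). Between IRF5-NP and eGFP-NP they were C1qa (2.23 ± 0.41), C1qb (1.62 ± 0.37), C1qc (1.51 ± 0.43) and C5ar1 (0.91 ± 0.31), with edgeR adjusted p of 0.579, 0.805, 0.829 and 0.829. DESeq2 called C1qa and C1qb lower in IRF5-NP than in IL4, all 3 C1q genes lower in eGFP-NP than in IL4, and C1qa higher in IRF5-NP than in eGFP-NP. With all 4 groups in 1 edgeR fit, C1qa, C1qb and C1qc also passed as lower with eGFP particles than with IL4 alone, at adjusted p of 0.00511, 0.00511 and 0.0116. With the fibroblast list mean as a covariate, they passed as higher in IRF5-NP than in eGFP-NP (adjusted p = 0.00612, 0.0336 and 0.00833).

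The receptor gene C3ar1 was split within both nanoparticle groups. It read 14.42 and 14.36 log2 CPM in IRF5-NP 1 and 2 and 14.08 in eGFP-NP 1-2, the libraries poor in fibroblast markers. In IRF5-NP 4 and eGFP-NP 3 and 4 it read 11.86, 12.55 and 12.62. Under TMM scaling C5ar1 was 10.44 to 10.55 in all 3 IRF5-NP libraries, above the 9.35 to 10.01 of eGFP-NP. With positive-control scaling it was 10.78, 10.83 and 8.61 in IRF5-NP 1, 2 and 4 and 8.41 to 9.63 in eGFP-NP, so these groups overlapped. For C5ar1, as for C3, the narrow range within IRF5-NP was thus limited to TMM among these 2 scalings.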

How the data were processed

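Gene expression was measured on the nCounter Myeloid Innate Immunity panel in 15 BMDM samples. The authors deposited raw counts for 768 probes (754 genes, 6 positive and 8 negative controls), not normalized. Their methods name NanoStringQCPro and scaling to housekeeping genes in nSolver. Of the gene names, 744 matched a current RefSeq symbol, 9 a synonym and 1 neither. Groups and replicate numbers came from the labels. Lane and cartridge were not given in the sources used here. The 2 members and all gene lists were chosen with earlier results of these data known.

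Replicates were compared by chi-square over genes whose 2 counts summed to 40 or more. All genes were fitted with edgeR 4.0.16 (glmQLFit and glmQLFTest, TMM, R 4.3.3) on the 2 groups compared, with a two-sided Benjamini-Hochberg threshold of 0.05 and no covariate or filter. The SE was taken as the absolute log2 difference over the root of its F statistic. The scripts were tested on simulated data. Genes named are C3, C4a, the counted genes of the complement list, and the 5 genes most correlated (Pearson's r) with each member, of which 1 near C4a is not reported here. Same-numbered IRF5-NP and eGFP-NP samples deviated together (r = 0.82 for each of numbers 1, 2 and 4), and differently numbered samples were not compared. In each group numbers 1 and 2 were nearly identical and poor in fibroblast markers, and number 4 was rich in them. Samples of other numbers could thus deviate together as well, so this r cannot show that the numbers pair the samples. The labels do not say whether they do. Alternatives were other scalings, DESeq2 1.42.0, a filter on low counts, background subtraction, other handling of similar libraries, all groups in 1 fit, a replicate block, a fibroblast covariate, leaving out each library, and the methods' t-test on housekeeping-scaled values.

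C3 counts of 155 or more carry little counting error, whereas C4a counts below background have no order.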

Additional observations from a re-analysis of the deposited data

Results flagged for a closer look

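The C4a level of IL4 2, 11.11 log2 CPM, lay far from the other IL4 libraries: its gap to the nearest was 0.834 of the range of the group. Dixon's critical value for 4 libraries is 0.829, but C4a was chosen by these counts and IL4 3 and 4 were below background, so this is a description and no test. Among 24 such groups of 4 examined (C3, C4a and the other complement genes in MPLA and IL4) no other gap was above that value, and chance alone gives about 1 in 20. The same library had the lowest positive-control mean (887 counts) of all samples, and its part in the C4a count was not tested.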

How the results depend on the processing

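The C3 differences kept their sign in every alternative run, but their size moved widely, over 0.11 to 1.34 (MPLA vs IL4), -2.50 to -0.17 (IRF5-NP vs IL4), -3.96 to -1.81 (eGFP-NP vs IL4) and 0.43 to 1.62 (IRF5-NP vs eGFP-NP). Leaving out 1 library gave C4a differences of -3.70 to 1.57 (MPLA vs IL4), -5.95 to -0.27 (IRF5-NP vs IL4) and -6.48 to -1.12 (eGFP-NP vs IL4), the upper ends being those without IL4 2. With the replicate block these were 0.54, -2.12 and -2.26, and with the fibroblast covariate the C4a difference of IRF5-NP from IL4 was -2.13. The C3 ends of -0.17 and 1.62 also came from the replicate block. IRF5-NP has no sample numbered 3, so IL4 3 and eGFP-NP 3 had no counterpart in its block fits. Those values therefore reflect the libraries left as well as the blocking. C4a had no value for the background-subtracted or filtered settings against IL4 in the nanoparticle groups, whose C4a was below background; their other C4a values against IL4 are no measured differences.

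The 7 complement genes called in MPLA vs IL4 became 4 with positive-control scaling, 4 with the replicate block, 4 with the fibroblast covariate, 0 with nearly identical libraries summed, and 0 or 3 with the methods' t-test after Benjamini-Yekutieli or Benjamini-Hochberg adjustment; leaving out 1 library gave 3 to 7. The 0 called in IRF5-NP vs IL4 became 2 with DESeq2. The 0 in eGFP-NP vs IL4 became 3 with DESeq2, 2 with all libraries separate, 3 with all groups in 1 fit and 0 to 1 when leaving out 1 library. The 0 in IRF5-NP vs eGFP-NP became 1 with DESeq2 and 3 with the fibroblast covariate. Itgam in MPLA vs IL4 reversed to -0.10 (housekeeping), -0.14 (positive controls), -0.033 (low counts filtered); leaving out 1 library gave -0.091 to 0.57. The replicate block changed no other count. Same-numbered samples of MPLA or a nanoparticle group and IL4 did not deviate together (r of -0.82 to 0.32), so there the block joins samples that share only a number. Causes were not tested.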
